A study of Homo sapiens with 14 samples.

Results

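The tyrosine tRNA genes, family tRNA-Tyr-GTA after their anticodon, made up 12 of the 248 tRNA loci and 24 of the 493 tRNA clusters at which TRMT2A crosslinks were counted. The loci were the tRNA clusters of the study's cluster table whose names begin with tRNA-Tyr-, clusters less than 40 nt apart were taken as 1 locus, and every cDNA count from 100 nt 5′ to 25 nt 3′ of a cluster on its strand was summed. The members were thus chosen by cDNA counts of these libraries, since the table kept clusters with at least 5 normalised counts in at least 3 of 5 experiments, so that the presence of counts at the members is a condition of their choice and not a result. The lowest member by this measure was tRNA-Tyr-GTA-3-1, whose only cluster held 2 counts in HEK293 FICC-Seq, 14 in HAP1 FICC-Seq, 2 and 1 in iCLIP of these lines and 151 in miCLIP as summed here without normalisation. RefSeq lists 14 tyrosine tRNA genes with this anticodon, of which 12 are in the table and 2 are not analysed here. TRMT2A is a tRNA methyltransferase, and its crosslinks were mapped by 3 methods in HEK293, a human embryonic kidney line, and HAP1, a near-haploid human line. In FICC-Seq (3 libraries in each line), cells received 100 µM 5-Fluorouracil for 24 h and endogenous TRMT2A was immunoprecipitated without UV light. In iCLIP (3 libraries in each line), the same antibody followed UV crosslinking of cells given no drug. In miCLIP (2 libraries, HEK293), a transfected FLAG-tagged TRMT2A with a catalytic glutamate changed to alanine was pulled down with a FLAG antibody 24 h after transfection, so that this group differs from the others also in the enzyme and the antibody. The condition label reads Untreated for every library, and the drug of FICC-Seq comes from the descriptions and protocols. Nothing in the labels says that replicates were separate cultures, and the p-values then measure only the spread between these libraries.

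In a tRNA gene the transcript begins with a leader and ends with a trailer, which RNase P and RNase Z remove, and CCA is added to the 3′ end. Tyrosine tRNA genes also carry an intron just 3′ of the anticodon, which the tRNA splicing endonuclease cuts out before the exons are ligated. The T-arm near the 3′ end holds a loop that opens with U54, the base that TRMT2A converts to 5-methyluridine, and position 58 in the same loop is an adenosine that is commonly methylated in tRNA. A deposited count marks the base next to the end of a cDNA, and for crosslinks formed during catalysis the base after the counted position is taken as the target, so that a count at position 53 points to U54.

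The 12 genes were 89 to 94 bases long and held introns of 16 to 21 bases between positions 37 and 38, with 7 acceptor and 5 T-stem base pairs at each. Of the mature sequences, 8 were distinct, and 1 gene of each is shown because the loci differ in the intron and in the T-loop, where the counts lie. Sequences are from hg19 (GRCh37), 5′ to 3′ on the strand of the gene, with the intron and the T-loop (positions 54 to 60) in capitals.
tRNA-Tyr-GTA-2-1: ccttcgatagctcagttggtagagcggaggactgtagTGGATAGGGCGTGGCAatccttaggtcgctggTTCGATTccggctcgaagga
tRNA-Tyr-GTA-5-4: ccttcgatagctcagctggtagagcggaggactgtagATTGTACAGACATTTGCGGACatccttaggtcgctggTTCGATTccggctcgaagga
tRNA-Tyr-GTA-4-1: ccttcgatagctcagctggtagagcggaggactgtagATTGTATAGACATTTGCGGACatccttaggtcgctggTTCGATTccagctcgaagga
tRNA-Tyr-GTA-7-1: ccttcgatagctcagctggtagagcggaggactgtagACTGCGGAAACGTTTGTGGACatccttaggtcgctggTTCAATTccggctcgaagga
tRNA-Tyr-GTA-1-1: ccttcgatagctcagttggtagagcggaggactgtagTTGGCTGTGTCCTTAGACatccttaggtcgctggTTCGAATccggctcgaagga
tRNA-Tyr-GTA-8-1: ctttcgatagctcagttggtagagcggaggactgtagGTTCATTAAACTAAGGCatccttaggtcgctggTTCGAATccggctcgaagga
tRNA-Tyr-GTA-3-1: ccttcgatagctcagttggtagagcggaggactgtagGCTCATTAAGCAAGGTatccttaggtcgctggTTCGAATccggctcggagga
tRNA-Tyr-GTA-6-1: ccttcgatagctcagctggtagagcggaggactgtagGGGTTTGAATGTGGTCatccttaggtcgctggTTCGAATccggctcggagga
The T-loop read TTCGATT or, at tRNA-Tyr-GTA-7-1, TTCAATT at 8 loci, and TTCGAAT at the other 4 (tRNA-Tyr-GTA-1-1, tRNA-Tyr-GTA-3-1, tRNA-Tyr-GTA-6-1 and tRNA-Tyr-GTA-8-1). From position 54 to 73 the shown tRNA-Tyr-GTA-2-1 and tRNA-Tyr-GTA-5-4 were identical, as were tRNA-Tyr-GTA-1-1 and tRNA-Tyr-GTA-8-1, and tRNA-Tyr-GTA-3-1 and tRNA-Tyr-GTA-6-1.

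The genes lay on 4 chromosomes of hg19. tRNA-Tyr-GTA-2-1 (chr2:27273650-27273738, plus strand) lies in an intron of AGBL5. On chromosome 14, tRNA-Tyr-GTA-5-3 (chr14:21121258-21121351), tRNA-Tyr-GTA-4-1 (chr14:21125623-21125716), tRNA-Tyr-GTA-7-1 (chr14:21128117-21128210) and tRNA-Tyr-GTA-5-4 (chr14:21131351-21131444) are on the minus strand and tRNA-Tyr-GTA-5-5 (chr14:21151432-21151520) on the plus strand, with no other annotated gene over them. The 4 genes with the loop TTCGAAT are on the plus strand of chromosome 6, tRNA-Tyr-GTA-1-1 (chr6:26569086-26569176), tRNA-Tyr-GTA-8-1 (chr6:26575798-26575887), tRNA-Tyr-GTA-3-1 (chr6:26577332-26577420) and tRNA-Tyr-GTA-6-1 (chr6:26595102-26595190). tRNA-Tyr-GTA-5-1 (chr8:67025602-67025694) and tRNA-Tyr-GTA-5-2 (chr8:67026223-67026311) are on the plus strand within the long non-coding RNA gene ENSG00000253190, and the first overlaps an exon of it. The 5 genes named tRNA-Tyr-GTA-5 have the same mature sequence and differ in their introns. A cDNA that starts at position 54 holds the same 20 bases at 6 of the 12 loci, and between 0 and 4 bases past position 73 were needed to tell a locus from the rest of the genome. The authors counted uniquely mapped cDNAs with up to 2 mismatches, so the division of counts among loci with the same 3′ end rests on those few bases. The first 3 bases after position 73 differed from CCA at 3 places at 8 loci, at 2 places at tRNA-Tyr-GTA-2-1, tRNA-Tyr-GTA-5-3 and tRNA-Tyr-GTA-3-1, and at 1 place at tRNA-Tyr-GTA-8-1, and whether mature tRNA ending in CCA was assigned to a particular locus was not tested.

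The 14 libraries held from 7002 to 104605 cDNA counts, of which 3809 to 60532 were at tRNA loci. FICC-Seq libraries had 1637 to 3538 counts at the tyrosine loci, miCLIP 1677 and 5130, and iCLIP only 239 to 306, so that iCLIP values for single loci are the least precise. Replicates of a group differed by more than sampling noise in every pair, with a chi-square per degree of freedom of 1.44 or more, and no library was a repeat of another. The HEK293 libraries of FICC-Seq and iCLIP carry 1 set name in their headers, the HAP1 libraries another and miCLIP another, so that cell line, and miCLIP against the rest, cannot be told apart from the set. The opposite strand of the tyrosine loci held 3 counts in all libraries together.

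The tyrosine loci took a larger part of the tRNA counts in FICC-Seq than in iCLIP. They held 12.97%, 11.96% and 15.1% of the tRNA counts in the 3 HEK293 libraries of FICC-Seq and 9.51%, 9.59% and 10.4% in those of HAP1. In iCLIP the shares were 3.42%, 5.43% and 7.38% in HEK293 and 4.91%, 5.29% and 5.13% in HAP1. No FICC-Seq library overlapped with an iCLIP library. The mean shares were 13.3% ± 1.58 (SD, n = 3) and 9.85% ± 0.513 (SD, n = 3) in FICC-Seq against 5.41% ± 1.98 (SD, n = 3) and 5.11% ± 0.192 (SD, n = 3) in iCLIP, and the difference of 6.33 percentage points was larger than the spread between replicates (exact permutation test, two-sided, within cell line, p = 0.005, the smallest of its 400 labelings, and 0.0175 after Benjamini-Hochberg adjustment over the 14 permutation tests of shares). The difference was 7.92 points within HEK293 and 4.74 within HAP1, each with p = 0.1 by the exact test, the smallest that 3 against 3 allows. The exact binomial interval of a library was widest in HEK293 iCLIP, replicate 3 (6.57% to 8.25%), and covers counting error only.

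In miCLIP the loci held 7.74% and 8.48% of the tRNA counts, below each of the 3 FICC-Seq libraries of HEK293. The difference of 5.22 points gave p = 0.1 (exact permutation test), the smallest that 3 against 2 libraries allows. Within FICC-Seq, HAP1 and HEK293 differed in this share by -3.48 points, with no overlap and p = 0.1 (exact permutation test, adjusted p = 0.127). With the replicate numbers as pairs, the exact permutation test gave p = 0.25, the smallest that 3 pairs allow. By mean share, tyrosine was the first of 39 anticodon families with at least 3 loci in miCLIP, the second in HEK293 FICC-Seq and the third in HAP1 FICC-Seq, and in iCLIP 2 families in HEK293 and 3 in HAP1 were above it. The shares are sums over the loci of a family, and no family has more loci than the 12 of tyrosine. In miCLIP a single locus, tRNA-Tyr-GTA-1-1, held 44.9% of the tyrosine counts.

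**Figure D1:**
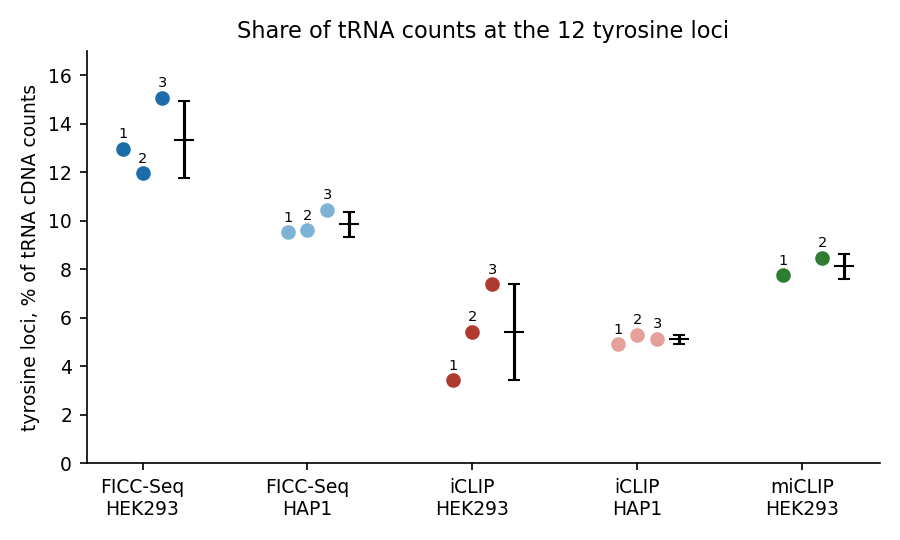
Percent of the tRNA cDNA counts that lay at the 12 tyrosine loci, for each of 14 libraries (points, with the replicate number), with the mean and SD of each group (bar). All 6 FICC-Seq libraries, at 9.51% or more, sit above the 6 iCLIP libraries, at 7.38% or less, and the miCLIP libraries lie at 7.74% and 8.48%.

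Along the gene, FICC-Seq counts were gathered at position 53. This position, next to the methylated uridine, held 72% ± 5.55 (SD, n = 3) of the HEK293 tyrosine counts and 60.1% ± 5.59 (SD, n = 3) of those from HAP1, and position 54 another 14.8% ± 0.626 and 17.5% ± 4.09. In HEK293 position 53 held 1847, 1083 and 2731 counts of 2542, 1637 and 3538. It was the highest position at 12 of 12 loci in HAP1 and at 11 in HEK293, where tRNA-Tyr-GTA-3-1, with 6 counts, had 4 of them at position 58. The trailer held at most 2 counts in any FICC-Seq library.

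In iCLIP the counts were spread over the T-arm and position 53 was minor. It held 3.97% ± 1.97 (SD, n = 3) in HEK293 and 6.44% ± 2.52 (SD, n = 3) in HAP1, while position 54 held 22.7% ± 9.56 and 17.03% ± 13.2. Position 58 held 14.1% ± 3.77 and 14.02% ± 4.16. Position 48, at the junction of the variable loop and the T-stem, held 8.43% and 9.51% in iCLIP and 0.0407% and 0.0744% in FICC-Seq. The highest position of a locus was 54 at 6 loci in HEK293 and 8 in HAP1, and 58 at 4 and 2.

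Positions 53 and 54 together held 86.9%, 81.7% and 91.9% of the tyrosine counts in HEK293 FICC-Seq and 82.3%, 71.3% and 79.4% in HAP1. The iCLIP libraries had 35.1%, 31.3% and 13.5% in HEK293 and 17.9%, 41.2% and 11.3% in HAP1. The methods did not overlap, and they differed by 57.2 percentage points (exact permutation test within cell line, p = 0.005, adjusted p = 0.0175). At the other tRNA loci with a readable T-loop, positions 53 and 54 held 60.8% to 73.3% in FICC-Seq and 12.3% to 30.5% in iCLIP, also without overlap. The contrast between the methods was thus not particular to the tyrosine loci. For position 58 at the tyrosine loci the difference was -10.2 points, from 2.04% to 7.31% over the FICC-Seq libraries and from 9.70% to 17.99% in iCLIP, again without overlap and with p = 0.005 (exact permutation test, adjusted p = 0.0175). With a correlation above 0.1 at every replicate number taken as pairing, FICC-Seq and iCLIP counted as paired in HAP1 and not in HEK293. In HEK293 replicate 3 fell short (0.00979), while replicates 1 and 2 (0.168 and 0.12) exceeded the lowest HAP1 value (0.111). With the replicate as a block, each of the 4 share differences between FICC-Seq and iCLIP (the tyrosine share, positions 53 and 54, position 58 and upstream of position 44) gave p = 0.0312 by the exact permutation test, the smallest that 6 pairs allow, and 0.0625 after adjustment. With 6 pairs and 14 tests no adjusted value could come under 0.05, so the block cannot decide whether the calls hold.

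In miCLIP position 53 held 19.7% and 27.3% and position 54 held 20.9% and 8.21%. Position 53 was the highest at 10 of the 12 loci, but the remaining counts ran from the leader through the intron to the T-arm. Positions 53 and 54 held 40.7% and 35.5%, below every FICC-Seq library of HEK293 by a mean of 48.8 points (exact permutation test, p = 0.1, the smallest possible). With the loci weighted equally the difference was 33.8 points. For position 58 the difference was -3.12 points with p = 0.2 (exact permutation test), although the libraries did not overlap, and -1.36 points with the loci weighted equally (exact permutation test, p = 0.1). Between HAP1 and HEK293 in FICC-Seq position 58 differed by 1.39 points (exact permutation test, p = 0.6, adjusted p = 0.6), by 0.922 with the loci weighted equally and by 3.01 without the libraries numbered 2. For the 1.39 points, the exact permutation test with the replicate numbers as pairs gave p = 0.75. Positions 50 and 51 in the T-stem held 4.30% and 2.79% in miCLIP and at most 0.234% in each FICC-Seq group.

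**Figure D2:**
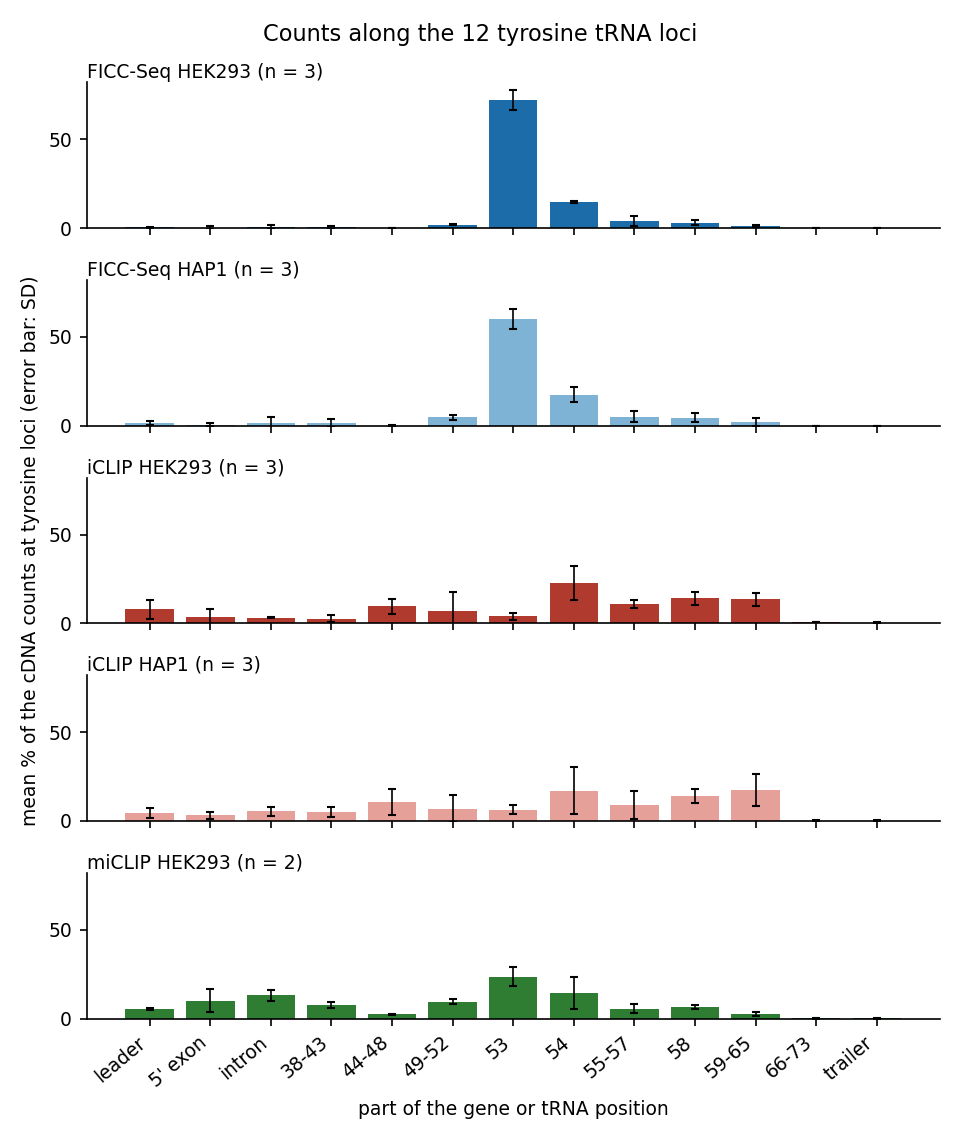
Mean percent of the cDNA counts at the 12 tyrosine loci in each part of the gene, from the leader to the trailer, with single bars for positions 53, 54 and 58 (error bars: SD over libraries). FICC-Seq peaks at position 53 (72% and 60.1%), iCLIP has no such peak, with 22.7% (HEK293) and 17.03% (HAP1) at 54 and 13.5% and 17.4% over positions 59 to 65, and miCLIP at 53 (23.5%) with 13.04% in the intron.

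Summed over the tyrosine loci, position 58 held a smaller share of the counts than at other tRNAs in each FICC-Seq and iCLIP library. The loci with the loop TTCGAAT, described below, did not follow this sum in the iCLIP means. Over the 219 other tRNA loci with a readable T-loop it held 20.3% ± 1.82 (SD, n = 3) of the counts in HEK293 FICC-Seq and 21.3% ± 2.84 (SD, n = 3) in HAP1, against 3.16% ± 1.26 and 4.55% ± 2.44 at the tyrosine loci. The tyrosine share was lower in 6 of 6 FICC-Seq libraries, by 15.3 to 19.2 points, and in 6 of 6 iCLIP libraries, by 8.84 to 16.9 points. Each gave p = 0.0312 (exact permutation test, two-sided, swapping within a library), the smallest that 6 libraries allow, and 0.0625 after adjustment over the 14 tests. With 6 libraries no adjusted value could come under 0.05 here, so the adjustment cannot decide. When position 53 was set, in place of the T-loop sequence, by the position with most FICC-Seq counts in the opposite line, tyrosine minus other loci came to -11.05 points in FICC-Seq (exact permutation test, p = 0.0312) and -3.69 points in iCLIP (exact permutation test, p = 0.0625). In miCLIP the share was 7.10% and 5.46% at the tyrosine loci and 8.26% and 8.24% at the others. Of the anticodon families with at least 3 placed loci, 2 of 37 in HEK293 FICC-Seq and 2 of 36 in HAP1 had a lower mean share at position 58, and the median over the other families was 20.2% and 19.2%.

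Positions 53 and 54 showed the reverse order in FICC-Seq. The tyrosine share exceeded that of the other loci in 6 of 6 libraries, by 10.5 to 18.9 points with a mean of 15.9 (exact permutation test, p = 0.0312, adjusted p = 0.0625). In iCLIP it was higher in 4 of 6 libraries with a mean difference of 3.45 points (exact permutation test, p = 0.281, adjusted p = 0.303), and in both miCLIP libraries it was lower, by 7.88 and 8.61 points. The direction in miCLIP rested on 1 locus, left out after seeing the values. tRNA-Tyr-GTA-1-1 had 22.7% and 17.2% at positions 53 and 54, and the other 11 tyrosine loci together had 55.2% (512 of 927 counts) and 50.5% (1423 of 2818), above the 48.55% and 44.1% of the other tRNA loci. In FICC-Seq the 11 loci were above the other tRNA loci in 6 of 6 libraries, by 12.09 to 19.98 points. With position 53 set by the FICC-Seq counts of the opposite line, the iCLIP difference was 0.342 points (exact permutation test, p = 0.969). For positions 53 and 54 together, 2 of 37 families had a higher mean share than tyrosine in HEK293 FICC-Seq and 8 of 36 in HAP1 FICC-Seq. For position 53 alone, no family of 37 had a higher mean share than tyrosine in HEK293 FICC-Seq, and in HAP1 FICC-Seq 4 of 36 families were higher, the highest with 65.9%. That tyrosine loci have few counts at position 58 was in view when the tests were chosen, so these p-values describe these libraries.

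**Figure D3:**
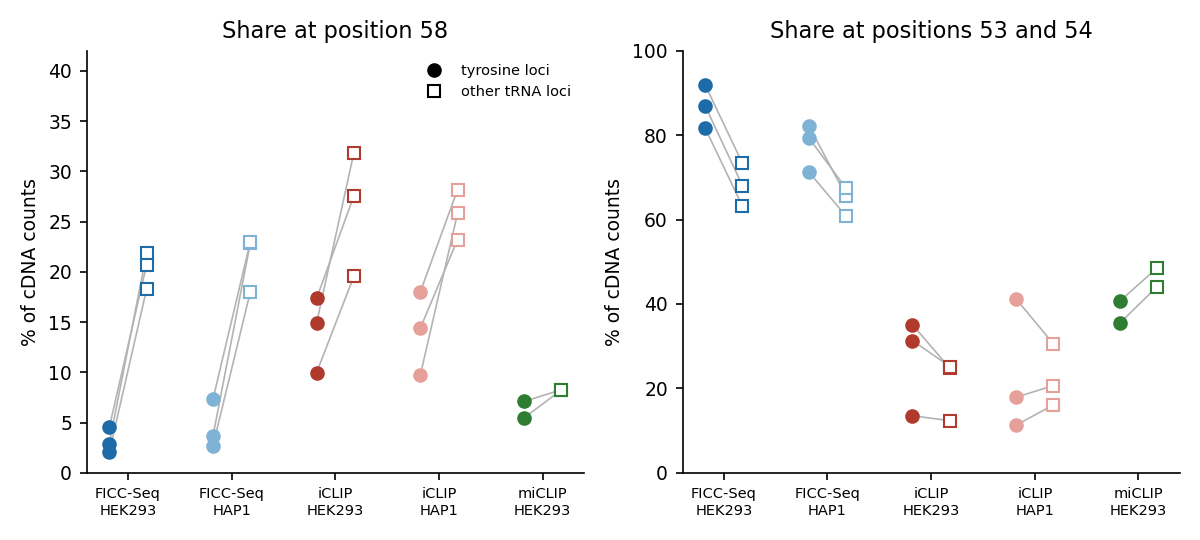
Percent of counts at position 58 (left) and at positions 53 and 54 (right) in each library, for the tyrosine loci (filled circles) and the other tRNA loci (open squares), with a line joining the values of a library. At position 58 every FICC-Seq and iCLIP line rises from the tyrosine loci to the other loci, and in FICC-Seq every line falls at positions 53 and 54.

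The loci shared the counts unequally. In FICC-Seq the highest were tRNA-Tyr-GTA-5-4 and tRNA-Tyr-GTA-2-1, with 3417 and 3072 counts over 6 libraries, and the lowest were tRNA-Tyr-GTA-8-1 with 48 and tRNA-Tyr-GTA-3-1 with 21. tRNA-Tyr-GTA-5-4, whose mature sequence 5 genes share, had 644, 479 and 896 counts in HEK293 FICC-Seq, 370, 497 and 531 in HAP1, 56, 35 and 36 in HEK293 iCLIP, 45, 39 and 43 in HAP1 iCLIP, and 116 and 415 in miCLIP. tRNA-Tyr-GTA-2-1, the gene within AGBL5, had 558, 330 and 705 in HEK293 FICC-Seq, 402, 494 and 583 in HAP1, 74, 57 and 73 and then 58, 55 and 45 in iCLIP, and 182 and 511 in miCLIP. As parts of the tyrosine counts, these were 26.6% ± 2.27 (SD, n = 3) and 20.7% ± 1.11 (SD, n = 3) in HEK293 FICC-Seq, 17.3% ± 1.15 and 18.3% ± 0.537 in HAP1, and 7.50% ± 0.829 (SD, n = 2) and 10.4% ± 0.631 in miCLIP.

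tRNA-Tyr-GTA-5-3, with the same mature sequence as tRNA-Tyr-GTA-5-4 but another intron, had 322, 185 and 415 counts in HEK293 FICC-Seq, 418, 436 and 546 in HAP1, 19, 21 and 28 and then 38, 35 and 37 in iCLIP, and 119 and 402 in miCLIP. tRNA-Tyr-GTA-5-1 had 193, 163 and 373 in HEK293 FICC-Seq, 233, 265 and 559 in HAP1, 51, 51 and 70 and then 45, 41 and 45 in iCLIP, and 39 and 197 in miCLIP. The first made up 11.9% ± 0.699 (SD, n = 3) of the tyrosine counts in HEK293 FICC-Seq and 17.5% ± 1.83 (SD, n = 3) in HAP1, and the second 9.36% ± 1.56 in HEK293 FICC-Seq and 21.1% ± 3.34 in iCLIP of that line. tRNA-Tyr-GTA-7-1, tRNA-Tyr-GTA-5-5, tRNA-Tyr-GTA-4-1, tRNA-Tyr-GTA-1-1 and tRNA-Tyr-GTA-5-2 had from 552 to 1429 FICC-Seq counts over the 6 libraries, and tRNA-Tyr-GTA-6-1 had 92.

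**Figure D4:**
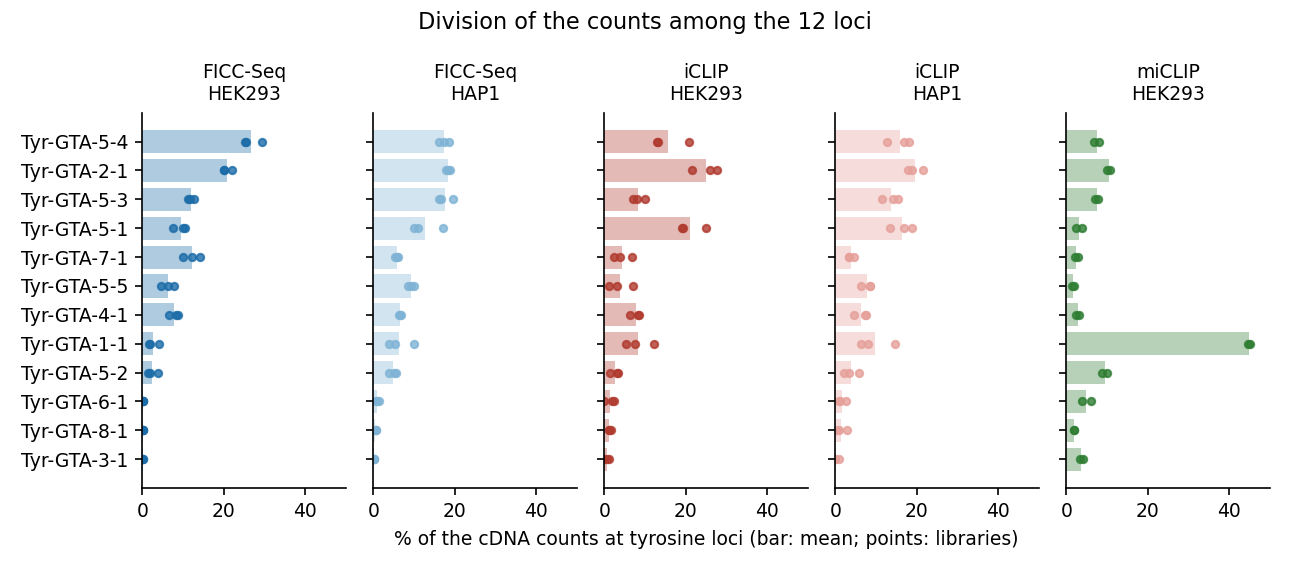
Percent of the tyrosine cDNA counts at each of the 12 loci, by method and cell line (bars: mean over libraries; points: libraries). In HEK293 FICC-Seq tRNA-Tyr-GTA-5-4 leads with 26.6%, and in miCLIP tRNA-Tyr-GTA-1-1 leads with 44.9%.

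Against iCLIP, 7 of the 9 tyrosine loci with enough counts to test were higher in FICC-Seq and none was lower, by limma on counts scaled within the tRNA loci (adjusted p at or under 0.05). Among all 180 loci tested, 61.1% were called, 30.6% higher in FICC-Seq and 30.6% lower, so the 7 of 9 compare with 48 of 171 among the other tRNA loci. tRNA-Tyr-GTA-7-1, with the loop TTCAATT, had the largest log2 fold change, 2.12 ± 0.38 (SE, adjusted p = 0.000164). It was followed by tRNA-Tyr-GTA-5-4 (1.39 ± 0.19, adjusted p = 1.47e-05), tRNA-Tyr-GTA-5-5 (1.39 ± 0.38, adjusted p = 0.00386) and tRNA-Tyr-GTA-5-3 (1.37 ± 0.21, adjusted p = 4.82e-05). Smaller rises were called at tRNA-Tyr-GTA-5-2 (0.97), tRNA-Tyr-GTA-4-1 (0.92) and tRNA-Tyr-GTA-2-1 (0.72).

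tRNA-Tyr-GTA-5-1 (0.13 ± 0.24, adjusted p = 0.691 by limma) and tRNA-Tyr-GTA-1-1 (-0.22 ± 0.31, adjusted p = 0.589 by limma) did not pass the test. tRNA-Tyr-GTA-3-1, tRNA-Tyr-GTA-6-1 and tRNA-Tyr-GTA-8-1 were too low to test. The median log2 fold change was 0.97 over the 9 loci and 0.05 over all 180. With the library total as the only scaling, the median of all loci was 0.87 and the calls were 93 higher and 36 lower in place of 55 and 55. 8 tyrosine loci were then called higher, and tRNA-Tyr-GTA-1-1 turned to 0.67 without a call. As families, the 9 tested loci of tRNA-Lys-CTT were all called higher, and of the 7 tested loci of tRNA-Ser-GCT 0 were called higher and 4 lower. The change of the FICC-Seq to iCLIP difference between the cell lines was called at 0 of 191 loci (0%, limma, with 18 at an unadjusted p under 0.05), and thus at none of the 10 tyrosine loci tested.

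miCLIP divided the tyrosine counts otherwise. tRNA-Tyr-GTA-1-1 had 750 and 2312 counts in the miCLIP libraries, 44.9% ± 0.244 (SD, n = 2) of the tyrosine counts. In FICC-Seq the same locus had 43, 66 and 68 counts in HEK293 and 80, 266 and 177 in HAP1, and in iCLIP 20, 32 and 15 and then 17, 45 and 19. It was the highest tyrosine locus in both miCLIP libraries and in none of the FICC-Seq libraries. Of its 3062 miCLIP counts, 277 were at position 53, 290 at 54, 287 at 58 and 1548 (50.6%) upstream of position 44, of which 500 lay in the intron.

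Between FICC-Seq and miCLIP in HEK293, tyrosine loci were called in both directions. Of the 9 loci with enough counts in FICC-Seq itself, FICC-Seq was higher at 7 and lower at 2, tRNA-Tyr-GTA-1-1 and tRNA-Tyr-GTA-5-2. The other 3 entered the test through miCLIP and their values are given as a description. Of the 239 loci tested, 76.2% were called, 32.6% higher in FICC-Seq and 43.5% lower. These 239 include loci that entered through miCLIP alone, so the 9 are not filtered like them. On the same filter all 12 tyrosine loci were called, 7 higher and 5 lower, against 71 and 99 of the other 227. The loci higher in FICC-Seq were tRNA-Tyr-GTA-7-1 (log2 fold change 3.57 ± 0.34, adjusted p = 4.36e-05), tRNA-Tyr-GTA-5-4 (3.15 ± 0.27, adjusted p = 2.37e-05), tRNA-Tyr-GTA-5-5 (3.07), tRNA-Tyr-GTA-5-1 (2.86), tRNA-Tyr-GTA-4-1 (2.81), tRNA-Tyr-GTA-2-1 (2.29) and tRNA-Tyr-GTA-5-3 (1.98). The loci lower in FICC-Seq were the 4 genes with the loop TTCGAAT, tRNA-Tyr-GTA-3-1 (-4.35 ± 0.66, adjusted p = 0.000342), tRNA-Tyr-GTA-6-1 (-3.12 ± 0.42, adjusted p = 0.00021), tRNA-Tyr-GTA-8-1 (-3.11) and tRNA-Tyr-GTA-1-1 (-2.97 ± 0.32, adjusted p = 6.94e-05), and tRNA-Tyr-GTA-5-2 (-0.81 ± 0.30, adjusted p = 0.0354). Of these, tRNA-Tyr-GTA-3-1 (0, 4 and 2 counts in FICC-Seq, 67 and 168 in miCLIP), tRNA-Tyr-GTA-8-1 (1, 4 and 1, then 30 and 93) and tRNA-Tyr-GTA-6-1 (6, 3 and 7, then 103 and 192) passed the filter on low counts only through miCLIP, so that their entry into the test required a difference in this direction. tRNA-Tyr-GTA-5-2 lost its call without FICC-Seq HEK293 replicate 1 (adjusted p = 0.118) or replicate 3 (0.156), or miCLIP replicate 2 (0.173). The median over all loci was -0.36 in this fit, so that changes are relative to the tRNA loci as a whole.

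Between HAP1 and HEK293 in FICC-Seq, 3 of the 10 tyrosine loci tested were called by limma. 1 of the 3, tRNA-Tyr-GTA-6-1, passed the filter on low counts only through HAP1. Over all 169 loci, 18.3% were called, 8.88% higher in HAP1 and 9.47% lower. tRNA-Tyr-GTA-7-1 fell by 1.47 on the log2 scale (SE 0.24, adjusted p = 0.000486) and tRNA-Tyr-GTA-5-4 by 1.02 (SE 0.19, adjusted p = 0.000876), and tRNA-Tyr-GTA-6-1 rose by 1.63 (SE 0.55, adjusted p = 0.0477) from 6, 3 and 7 counts to 13, 35 and 28. The HEK293 counts of tRNA-Tyr-GTA-6-1 were under the filter's minimum of 10, so that its entry into the test required a difference in this direction. Its value is given as a description, and its call was lost when any 1 of the 6 libraries was left out. tRNA-Tyr-GTA-7-1 had 307, 163 and 500 counts in HEK293 and 129, 153 and 177 in HAP1, which overlap as counts and do not overlap as parts of the tyrosine counts, 12.1% ± 2.09 (SD, n = 3) and 5.71% ± 0.326 (SD, n = 3).

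The replicate numbers paired these libraries, and with the replicate as a block 6 tyrosine loci were called, among 43 tRNA loci in place of 31. These were the same 3, tRNA-Tyr-GTA-4-1 (-0.66 ± 0.19, adjusted p = 0.0468), tRNA-Tyr-GTA-2-1 (-0.56 ± 0.16, adjusted p = 0.0459) and tRNA-Tyr-GTA-1-1 (0.93 ± 0.18, adjusted p = 0.0111). Without the libraries numbered 2 of both lines, which had more counts upstream of position 44, 8 were called, 4 in each direction, among 53 tRNA loci. Of the 4 higher in HAP1, tRNA-Tyr-GTA-8-1 (1 and 1 counts in HEK293, 11 and 21 in HAP1) and tRNA-Tyr-GTA-6-1 passed the filter only through HAP1. Their entry thus required a difference in this direction. With only positions from 44 on, 7 were called, 3 higher and 4 lower in HAP1, among 49 tRNA loci. The 3 include tRNA-Tyr-GTA-6-1, again through HAP1 only. The library total as the only scaling gave 13 loci higher and 21 lower over all loci in place of 15 and 16.

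**Figure D5:**
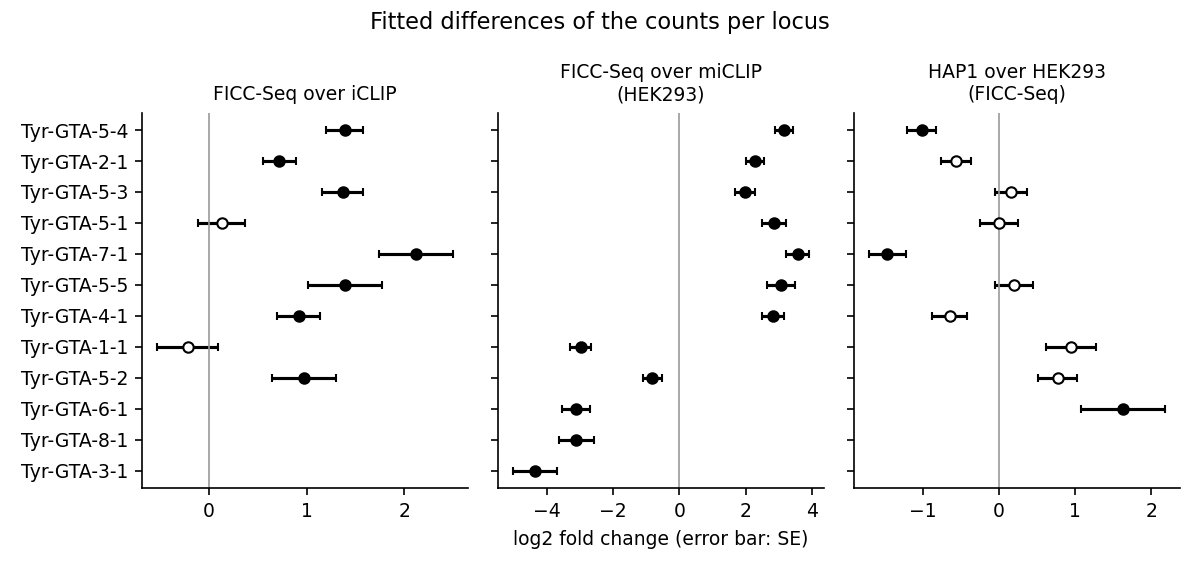
Log2 fold change (points) and SE (bars) of the counts at each tyrosine locus from limma, for FICC-Seq over iCLIP, FICC-Seq over miCLIP in HEK293 and HAP1 over HEK293 in FICC-Seq (filled: adjusted p at or under 0.05; open: not called; no point: too low to test). In the middle panel the 9 loci with enough FICC-Seq counts run from 3.57 (tRNA-Tyr-GTA-7-1) to -2.97 (tRNA-Tyr-GTA-1-1), and the remaining 3 (tRNA-Tyr-GTA-3-1, tRNA-Tyr-GTA-6-1 and tRNA-Tyr-GTA-8-1) passed the filter only through miCLIP. In the right panel tRNA-Tyr-GTA-6-1 passed it only through HAP1.

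Upstream of position 44, the leader, the 5′ exon, the intron and the 3′ side of the anticodon stem held few FICC-Seq counts. The share was 0.511%, 5.25% and 0.622% in HEK293 and 1.36%, 11.8% and 2.99% in HAP1. It was 11.6%, 9.43% and 31.0% in HEK293 iCLIP, 17.9%, 18.6% and 18.4% in HAP1 iCLIP, and 28.6% and 43.1% in miCLIP. FICC-Seq replicate 2 stood above its group in both lines, and that of HAP1 lay within the range of iCLIP. The mean difference to iCLIP was -14.1 points (exact permutation test within cell line, p = 0.005, adjusted p = 0.0175) and -16.45 points without these FICC-Seq libraries (p = 0.01, the smallest possible for the exact test then). With positions of a single count left out it was -8.96 points (exact permutation test, p = 0.015). Against miCLIP it was -33.7 points (exact permutation test, p = 0.1, the smallest possible), and -22.4 points with the loci weighted equally (p = 0.1 by the exact test). The other tRNA loci, with position 44 set by distance from position 54, showed the same libraries high. They held 6.98% and 10.9% in the FICC-Seq libraries numbered 2 and 0.617% to 1.42% in the remaining FICC-Seq libraries. In iCLIP the other tRNA loci held 5.12% to 24.5%, with HEK293 replicate 3 the highest, and in miCLIP 21.6% and 31.2%. The order of the methods was thus not particular to the tyrosine loci.

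Introns were counted mainly in miCLIP. Reads were aligned without splicing, so a cDNA that crossed a spliced junction could be placed only within the 2 mismatches allowed. A count at the last intron base marks a cDNA that begins at position 38 and need not hold an intron base. How many of the intron counts came from unspliced transcripts was not tested. The intron held 184 and 775 counts in miCLIP, 13.04% ± 2.92 (SD, n = 2) of the tyrosine counts. FICC-Seq had 1, 32 and 1 in HEK293 and 0, 139 and 3 in HAP1, so that nearly all lay in the libraries numbered 2. The 0 of 2135 counts in HAP1 replicate 1 allows a share of up to 0.141%. iCLIP had 8, 9 and 8 in HEK293 and 11, 26 and 9 in HAP1, or 3.08% ± 0.286 (SD, n = 3) and 5.46% ± 2.64 (SD, n = 3). The leader, which RNase P removes, held 5.31% ± 0.672 in miCLIP and 7.87% ± 5.51 in HEK293 iCLIP, against 0.586% ± 0.150 in HEK293 FICC-Seq. In miCLIP, the share upstream of position 44 was 35.8% at the tyrosine loci, and 5 of 39 families had a higher mean, against a median of 22.2% over the other families. These 5 were tRNA-Thr-CGT (62.2% ± 0.597), tRNA-Leu-CAA (53.2% ± 6.65), tRNA-Ala-AGC (44.3% ± 5.08), tRNA-Ala-CGC (42.5% ± 6.38) and tRNA-Ile-TAT (42.1% ± 11.9, SD, n = 2). Of these, tRNA-Leu-CAA and tRNA-Ile-TAT are families whose genes also carry introns, while tRNA-Thr-CGT, the highest, tRNA-Ala-AGC and tRNA-Ala-CGC are not. Introns were located here only at the tyrosine loci, and whether this share goes with introns was not tested. Position 44 was set by distance from position 54. At leucine and serine tRNAs, which have a long variable arm, part of that arm was thus taken as upstream. The value of tRNA-Leu-CAA and the median over families are therefore not like for like with the tyrosine share.

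Summed over the 4 loci with the loop TTCGAAT, mostly counts of tRNA-Tyr-GTA-1-1, position 58 held a larger share than over the other 8. These classes were seen after the values, so the following is a description with no test. Position 58 held 28.0%, 14.3% and 17.9% of the counts at the 4 loci in HEK293 FICC-Seq, and 2.41%, 4.04% and 1.68% at the 8 loci. In HAP1 it held 9.26%, 7.01% and 11.97% against 3.36%, 2.11% and 6.95%, with the lowest value of the 4 loci (7.01%) close to the highest of the 8 (6.95%). The single loci of HAP1 FICC-Seq did not all follow the sum. Position 58 held 9.56% at tRNA-Tyr-GTA-1-1 and 11.8% at tRNA-Tyr-GTA-6-1, but 2.38% at tRNA-Tyr-GTA-8-1 (1 of 42 counts) and 0 of 15 at tRNA-Tyr-GTA-3-1, which allows a share of up to 20%, against 1.89% (tRNA-Tyr-GTA-4-1) to 5.30% (tRNA-Tyr-GTA-5-1) over the other 8. In iCLIP the means were 36.8% ± 5.29 (SD, n = 3) and 11.3% ± 2.996 in HEK293, and 32.8% ± 12.3 and 11.5% ± 3.002 in HAP1, without overlap within a line. In miCLIP it held 11.9% and 9.30% against 0.825% and 0.973%. At the tRNA loci other than tyrosine, position 58 held a mean of 26.3% in HEK293 iCLIP and 25.8% in HAP1 iCLIP, less than at the 4 loci. In FICC-Seq those tRNA loci held 20.3% in HEK293 and 21.3% in HAP1, against means of 20.1% and 9.41% at the 4 loci. The lower share of tyrosine than of other tRNAs was thus not seen in the means of these 4 in iCLIP. The 4 loci rest on 50, 77 and 78 counts in HEK293 FICC-Seq and 21 to 56 in the iCLIP libraries, and most of them are from tRNA-Tyr-GTA-1-1.

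The 4 loci made up 2.96% ± 1.52 (SD, n = 3) of the tyrosine counts in HEK293 FICC-Seq, 7.95% ± 3.39 (SD, n = 3) in HAP1, 11.5% ± 4.66 and 12.9% ± 5.24 in iCLIP, and 55.3% ± 1.95 (SD, n = 2) in miCLIP. They gave 370 of the 399 tyrosine counts at position 58 in miCLIP, 34 of 114 in HEK293 iCLIP and 39 of 220 in HEK293 FICC-Seq.

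Across the 14 libraries, the anticodon families whose log2 share of the tRNA counts was most like that of tyrosine were tRNA-Ile-AAT (Pearson r = 0.876), tRNA-Ala-CGC (0.856) and tRNA-Asn-GTT (0.803). The 14 points share methods, library sets and depths, and the values are a description without a test.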

How the data were processed

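Crosslink sites of TRMT2A were analysed in 14 libraries of the established lines HEK293 and HAP1. The authors mapped reads to hg19 with up to 2 mismatches, kept uniquely mapped reads, removed PCR duplicates by 5 random barcode bases, and deposited, per the file headers, bedGraph tracks of cDNA counts per position, whose sign gives the strand. The deposited values are whole numbers once the sign is dropped, but as signed values they were not taken as raw count tables, and limma was used in place of the count model that had been planned. No depth beyond these cDNA counts enters, and binomial intervals (95%, exact Clopper-Pearson) and the floor of 3 counts cover counting error only.

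Counts were summed from 100 nt 5′ to 25 nt 3′ of the tRNA clusters of the study's table, and clusters under 40 nt apart were joined. Gene bodies were numbered by tRNA position from the T-loop sequence, with position 73 as the last base before the trailer. Position 44 was set by distance from position 54, which at leucine and serine loci falls within the long variable arm. The RefSeq table of tRNA genes matched 12 of 12 loci in length. Shares per library were compared by exact permutation tests with Benjamini-Hochberg adjustment over 14 tests. Counts per locus were fitted with limma-voom after scaling by trimmed means computed within tRNA loci and a filter on low counts, and p-values were adjusted over all loci tested. The filter needs the rate of 10 counts in a library of median size, in at least as many libraries as the smallest group, and 15 counts in total. Both kinds of script were tested on simulated data. All 12 tyrosine loci are named, with counts per library for the 4 highest in FICC-Seq and the highest in miCLIP. The members, lists and tests were chosen with earlier results of these data known.

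The replicate numbers were checked as pairs by the correlation, over 235 tRNA loci, of deviations from the group means. FICC-Seq of HAP1 and HEK293 gave 0.42, 0.62 and 0.32 for numbers 1, 2 and 3, all above 0.1, and the numbers were taken as pairs there from the data. FICC-Seq and iCLIP gave 0.111, 0.284 and 0.128 in HAP1, also above 0.1, and 0.168, 0.12 and 0.00979 in HEK293, where they were not taken as pairs. No correlations of unlike replicate numbers were set beside these, and the pairing rests on this cut-off. Alternatives were another scaling, no filter, the replicate block, leaving out libraries, a correction for barcode collisions, positions with 1 count left out, clusters only, equal weight per locus and another placement of position 54. Python 3.11.15, scipy 1.17.1, pandas 2.3.3, R 4.3.3 and limma 3.58.1 were used.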

Additional observations from a re-analysis of the deposited data

How the results depend on the processing

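Of 591 values recomputed under alternatives, 548 kept their direction and their side of the threshold or stayed within 1.5 times the count. Among the called results, 0 changed direction. The share comparisons of FICC-Seq with miCLIP and of HAP1 with HEK293 could not pass the threshold in any setting. Their smallest possible p was 0.1 by the exact permutation test with all libraries, and fewer libraries or the replicate block cannot lower it. For these values only the direction could change, so their unchanged side of the threshold is no sign of stability. Between HAP1 and HEK293 in FICC-Seq, 31 tRNA loci were called, 53 without the libraries numbered 2, 49 with positions from 44 on, and 16 to 40 when 1 library was left out (16 without HEK293 replicate 1, 18 without HAP1 replicate 1 and 19 without HAP1 replicate 3). The tyrosine loci called numbered 3, 8 without the libraries numbered 2, 7 with positions from 44 on, 6 with the replicate block, and 2 to 7 when 1 library was left out (7 without HEK293 replicate 2). The 3, 8, 7 and 6 include tRNA-Tyr-GTA-6-1, which entered only through HAP1, as did tRNA-Tyr-GTA-8-1 among the 8. Leaving out the libraries numbered 2 together, positions from 44 on and median-of-ratios scaling were chosen after seeing the data. The cause was not tested. tRNA-Tyr-GTA-6-1 was not called with the library total as the only scaling (adjusted p = 0.0852 by limma) or without the filter (0.105). The difference of the FICC-Seq to iCLIP change between lines was called at 0 loci and at 2 without FICC-Seq HAP1 replicate 1, with 0 to 2 over the libraries left out.

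For position 58 at tyrosine minus other loci, leaving out 1 library gave -17.23 to -16.45 points in FICC-Seq and -12.62 to -11.0 in iCLIP, and for positions 53 and 54 in FICC-Seq 15.26 to 16.93. Without the libraries numbered 2 the values in FICC-Seq were -17.49 and 16.53. With fewer libraries the exact permutation test cannot go below p = 0.0625 or 0.125. Taking the most counted FICC-Seq position of the other line as position 53 gave -3.691 in iCLIP (exact permutation test, p = 0.0625) and -11.05 in FICC-Seq.

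For FICC-Seq against miCLIP the replicate numbers did not pair the libraries by correlation (0.0174 and 0.0328), and with the replicate block tRNA-Tyr-GTA-5-2 had a log2 fold change of -0.65 (adjusted p = 0.154 by limma). For FICC-Seq against iCLIP the numbers paired the HAP1 libraries (0.111 to 0.284) and not all HEK293 libraries (0.00979 to 0.168). With the replicate block 112 loci were called and no call of a tyrosine locus changed. The 4 share differences gave adjusted p = 0.0625 (exact permutation test), which with 6 pairs could not come under 0.05. A DESeq2 fit was not run, because the signed tracks were not taken as raw count tables, and median-of-ratios scaling stood in for it. The iCLIP libraries, with 239 to 306 tyrosine counts, limit what can be seen at single loci.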
